A study of Mus musculus with 3 samples.

Results

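Activator protein 1 (AP-1) and BATF genes were described here in RAW cells, a mouse macrophage line, that received LPS with or without previous contact with 1 of 2 lactobacilli strains. They were the 10 genes *Jun*, *Junb*, *Jund*, *Fos*, *Fosb*, *Fosl1*, *Fosl2*, *Atf3*, *Batf* and *Batf2*, chosen by symbol among the 26840 genes with a symbol on the array, and covered by 16 of its 56605 gene probes. The LPS group received the TLR4 agonist LPS at 50 ng/mL alone. The CRL1505 + LPS group was first cultured for 24 h with *L. rhamnosus* CRL1505 at 50000000 cells/mL, and the CRL1506 + LPS group likewise with *L. plantarum* CRL1506, before the same LPS challenge. The design gives 12 h of LPS and the sample descriptions give 3 h, so the time after LPS is not settled. There was 1 array per group, a single macrophage line served as the model, and arrays of cells without LPS were not analysed here. No test was therefore possible, and every ratio below compares single arrays.

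AP-1 is a dimer of basic leucine zipper (bZIP) proteins, in which a Jun protein pairs with a Fos, ATF or another Jun protein and binds short DNA elements around genes of inflammation, matrix turnover and growth. In macrophages, signaling from TLR4 through the MAP kinases raises the transcription of several of these genes within a short time and also activates the proteins already made. The BATF proteins pair with Jun proteins and act with interferon regulatory factors (IRFs) at joint DNA elements.

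The sequences that carried the measurements were the array probes, shown by their first 30 of 60 bases for the members past 2-fold, for *Jun*, which went the other way, and for both *Fosl2* probes, which disagreed with each other. Positions are those of the array files on mm9.
*Jun* probe, chr4:94716928-94716987, minus strand: atgctaacgcagcagttgcaaacgttttga
*Junb* brightest probe, chr8:87500843-87500902, minus strand: ttcgtgtctaaagtctattttaagatgtgt
*Fos* probe, chr12:86818118-86818177, plus strand: cctgaggtctttcgacatgtggaaagtgaa
*Fosb* brightest probe, chr7:19888168-19888227, minus strand: actgccgaccacaattcattgactccatag
*Fosl1* probe, chr19:5455496-5455555, plus strand: ctagagctggcctatcataatttgcacaaa
*Fosl2* brightest probe, chr5:32460076-32460135, plus strand: gctatggaggaaagaacatattaaaaactt
*Fosl2* other probe, chr5:32455088-32455147, plus strand: gattgctgagctgcagaaggagaaggagaa
*Batf2* probe, chr19:6172387-6172446, plus strand: acggtgtgtgagaacaggacccactcctgg

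RefSeq promoters (GRCm38.p6, from 250 bases before to 50 after the transcription start) matched 8 of the 10 genes, while *Fosl1* and *Batf2* had none in the table. They were searched on both strands for the AP-1 element TGANTCA, the cyclic AMP response element TGACGTCA, its half-site TGACG, which is also part of the full element, and TGACATCA and TTACCTCA, variants of the AP-1 element. None of the 8 promoters held TGANTCA, found in 7.81% of all 32851 promoters, or TGACGTCA, found in 1.79%. The half-site lay in 5 of the 8, those of *Atf3*, *Fosb*, *Junb*, *Fos* and *Batf*, and in 20.8% of all promoters. *Jun* held both variants, TGACATCA from base -45 to -38 and TTACCTCA from base -164 to -157, which occurred in 3.62% and 0.889% of promoters. Both variants were set beforehand as exact letters, so their presence in *Jun* is a description only. No enrichment is read from these shares. The interferon-type element GAAANNGAAA was found only in *Fosl2* among the 8 and in 3.44% of all. The 250 bases before the start of *Fos* and *Jun*, the dimer partners whose ratios to LPS had opposite signs with CRL1505, are shown on the gene's strand with these letters in capitals.
*Fos*, chr12:85473640-85473889, plus strand: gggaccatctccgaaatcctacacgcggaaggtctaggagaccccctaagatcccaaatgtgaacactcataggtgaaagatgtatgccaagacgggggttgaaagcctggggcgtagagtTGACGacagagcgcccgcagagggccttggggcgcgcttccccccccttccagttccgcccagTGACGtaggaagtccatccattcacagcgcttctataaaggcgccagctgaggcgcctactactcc
*Jun*, chr4:95052223-95052472, minus strand: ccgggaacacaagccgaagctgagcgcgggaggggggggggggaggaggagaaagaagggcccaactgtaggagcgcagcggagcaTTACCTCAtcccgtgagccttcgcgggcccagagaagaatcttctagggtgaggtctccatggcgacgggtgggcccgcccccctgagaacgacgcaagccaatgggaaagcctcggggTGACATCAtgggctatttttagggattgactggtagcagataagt

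A level is given as the processed signal of the gene's brightest probe divided by the 75th percentile signal of its array, and ratios are log2 differences of such levels. That percentile was a signal of 743.1 on the LPS array, 517.0 on the array of CRL1505 + LPS and 697.9 on the array of CRL1506 + LPS. The software marked 54.5%, 48.5% and 55.3% of the spots as well above background, respectively. The array of CRL1506 + LPS came from the same slide and scan run as that of LPS, whereas the CRL1505 + LPS array was on another slide scanned in another run, so that strain and slide cannot be told apart. Both comparisons with LPS use the same LPS array. The ratios of different probes of a gene had a median SD of 0.23 for CRL1505 + LPS over LPS. It was 0.21 for CRL1506 + LPS over LPS and 0.32 between the strains. Smaller differences are read here as within the spread between probes. That spread comes from the same arrays and does not cover variation between cultures or hybridisations, so a larger difference can still lie within that variation. All 10 macrophage markers on the array were well above background on every array, as were 3 of 5 T cell markers, while B cell markers were so in 1 to 2 of 4, fibroblast markers in 0 to 3 of 5 and epithelial markers in 0 to 1 of 5. Some markers differed from LPS by 2-fold or more, named here after their values were seen. With CRL1505 these were *Csf1r* at a log2 ratio of -1.47, *Adgre1* at 2.27 and *Fcgr1* at 2.40 among the macrophage markers, with a median of 0.15 over the 10. Beyond the macrophage list they were *Col1a2* at 1.81, *Cd79b* at -1.95 and *Epcam* at -1.93, each a bound. With CRL1506 they were *Adgre1*, 2.005-fold higher, *Cd79b* at a log2 ratio of -1.21, *Epcam* at -1.39, and *Col1a1* at 1.85 and *Dcn* at 2.04 as bounds, while the 3 T cell markers compared lay between -0.26 and 0.04 for both strains. The *Col1a1* spot itself had uneven pixels on the CRL1506 + LPS array, as did the *Dcn* spot on the LPS array. Of the spots nearest to them on the CRL1506 + LPS array, 5 were uneven for *Col1a1* and 6 for *Dcn*. On the LPS array 9 of the spots nearest to the *Cd79b* probe were uneven, 4 for *Epcam* and 3 for *Fcgr1*. The part of the uneven spots in these marker ratios, and of the marker transcripts in the results, was not tested. In RNA of whole cultures, more transcript per cell and more expressing cells cannot be told apart.

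With CRL1505, *Batf2*, *Fos* and *Fosl1* were at least 2-fold higher than with LPS alone, *Fosb* was at least 2-fold lower, and *Batf* stayed near background throughout. Hence 3 of the 9 members compared were higher, where 9.92% of the 15609 genes compared were, and 1 was lower, where 8.41% of genes were. With CRL1506, no member was 2-fold higher or lower, where 5.67% and 3.52% of the 16284 genes compared were. The median log2 ratio of the 9 members was 0.59 with CRL1505, against 0.01 over all genes, and -0.14 with CRL1506, against -0.06. Over 7 other scalings of the arrays these member medians ran from 0.09 to 0.89 and from -0.34 to -0.01. The scalings moved other genes as well. With CRL1505 the median of bright genes ran from -0.45 with spike-in probes to 0.35 with a shift by the median. The 0.59 is the value of the brightest *Fosl2* probe, with which the gene's other probe disagreed.

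**Figure D1:**
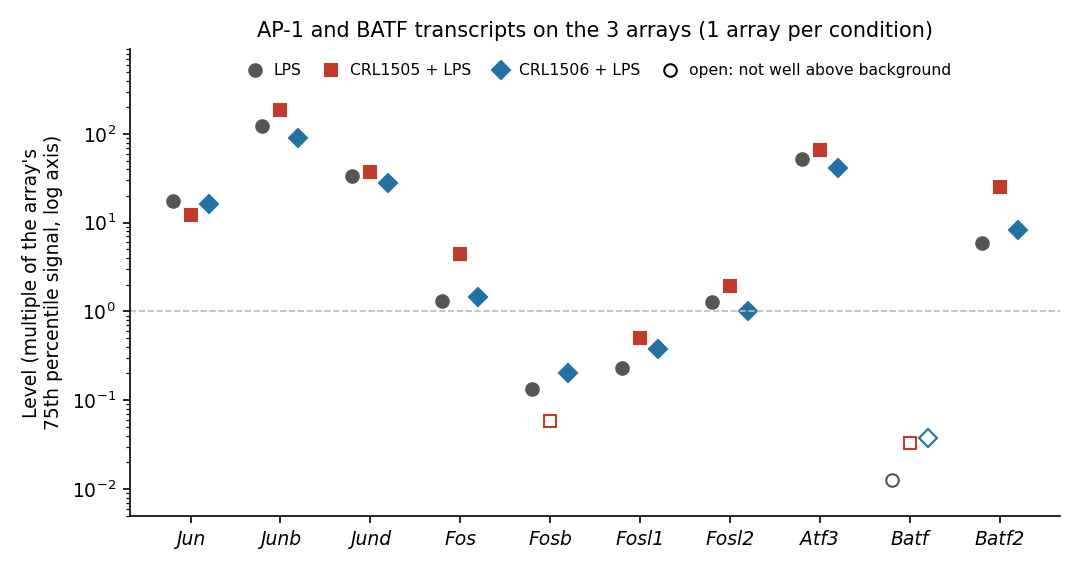
Level of each member on the LPS (circles), CRL1505 + LPS (squares) and CRL1506 + LPS (diamonds) arrays, as a multiple of the array's 75th percentile signal (dashed line) on a log axis, with open symbols for probes not well above background and 1 array per condition. *Fos* and *Batf2* are highest on the CRL1505 + LPS array, at 4.47 and 25.1, and the *Fosb* probe drops below the background threshold there. Heights of different genes are read by different probes and cannot be ranked.

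*Fos*, the immediate-early partner of Jun in the classical dimer, had a level of 1.32 with LPS, 4.47 with CRL1505 + LPS and 1.44 with CRL1506 + LPS. The CRL1505 + LPS array thus stood apart from the other two, which were close together. Its log2 ratio to LPS was 1.76 with CRL1505, a 3.38-fold rise that 3.87% of all genes compared matched or exceeded. With CRL1506 the log2 ratio of *Fos* was 0.13, within the spread between probes. *Fos* stayed above 2-fold with CRL1505 under all 7 other scalings tried, with log2 ratios from 1.25 to 2.05. With CRL1506 its sign was not settled, from -0.07 when arrays were shifted by the median to 0.22.

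*Fosl1*, which encodes the Fos-related protein Fra-1, had a low level on each array, namely 0.228 with LPS, 0.506 with CRL1505 + LPS and 0.382 with CRL1506 + LPS. Both strain arrays were above the LPS array. The log2 ratio was 1.15 with CRL1505, or 2.22-fold, and 0.74 with CRL1506, or 1.68-fold. The ratio with CRL1505 stayed past 2-fold in 4 of 7 scalings and was lowest, at 0.64, when arrays were scaled to the spike-in probes. On the LPS array 3 of the 20 spots nearest to this probe had uneven pixels, and their part in the ratio was not tested.

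*Fosb*, an immediate-early Fos gene whose protein also exists as a short form, had a level of 0.135 with LPS and 0.202 with CRL1506 + LPS. On the CRL1505 + LPS array its probe read 0.0576 and was not well above background. *Fosb* was therefore at least 2.35-fold lower with CRL1505 than with LPS, a log2 ratio of -1.23 as a bound. That bound passed 2-fold in only 3 of 7 scalings, and reached -0.34 with normexp background correction. With CRL1506 the log2 ratio to LPS was 0.58, or 1.49-fold higher. On the second *Fosb* probe no array was well above background, and the gene rests on a single dim probe.

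*Fosl2* encodes Fra-2, a Fos-related protein without the transactivation domain of c-Fos. Its brightest probe read 1.29 with LPS, 1.95 with CRL1505 + LPS and 1.02 with CRL1506 + LPS, that is log2 ratios to LPS of 0.59 and -0.34. The other probe, shown above, lies nearer to the 5' end and read 0.149, 0.148 and 0.210, with log2 ratios of -0.01 and 0.50. The probes thus gave different orders of the 3 arrays and opposite signs for CRL1506. No direction for *Fosl2* is taken from these arrays.

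*Jun*, which encodes c-Jun, the partner shared by Fos and BATF proteins, was measured by 1 probe. Its level was 17.7 with LPS, 12.1 with CRL1505 + LPS and 16.1 with CRL1506 + LPS. The log2 ratio to LPS was -0.56 with CRL1505, or 1.47-fold lower, under the 2-fold threshold, and -0.14 with CRL1506. *Jun* was below 0 with CRL1505 in all 7 scalings, from -1.06 with spike-in probes to -0.26.

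*Junb*, which encodes a Jun protein that can restrain c-Jun, had a level of 121.4 with LPS, 188.1 with CRL1505 + LPS and 90.2 with CRL1506 + LPS. The order of the arrays was the same on a second probe well above background on all arrays, with levels of 1.22, 1.70 and 0.908. With CRL1505 the log2 ratio to LPS was 0.63 on the brightest probe and 0.48 on the second, and with CRL1506 it was -0.43 on both. On the brightest probe the ratios kept their signs in all 7 scalings, from 0.12 to 0.93 with CRL1505 and from -0.63 to -0.22 with CRL1506. The scalings were not read on the second probe. A further *Junb* probe was well above background only with LPS, where its level was 0.0658, and gave log2 bounds of -0.20 with CRL1505 and -0.47 with CRL1506. For CRL1505 this dim probe went against the brighter ones, and the last *Junb* probe was well above background on none.

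*Jund*, a Jun gene that many resting cells express, had a level of 33.3 with LPS, 37.2 with CRL1505 + LPS and 28.0 with CRL1506 + LPS. Against LPS, *Jund* had a log2 ratio of 0.16 with CRL1505 and -0.25 with CRL1506, and the second probe gave 0.09 and -0.40. With CRL1505 this was within the spread between probes, and the sign was negative in 3 of 7 scalings, down to -0.34 with spike-in probes.

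**Figure D2:**
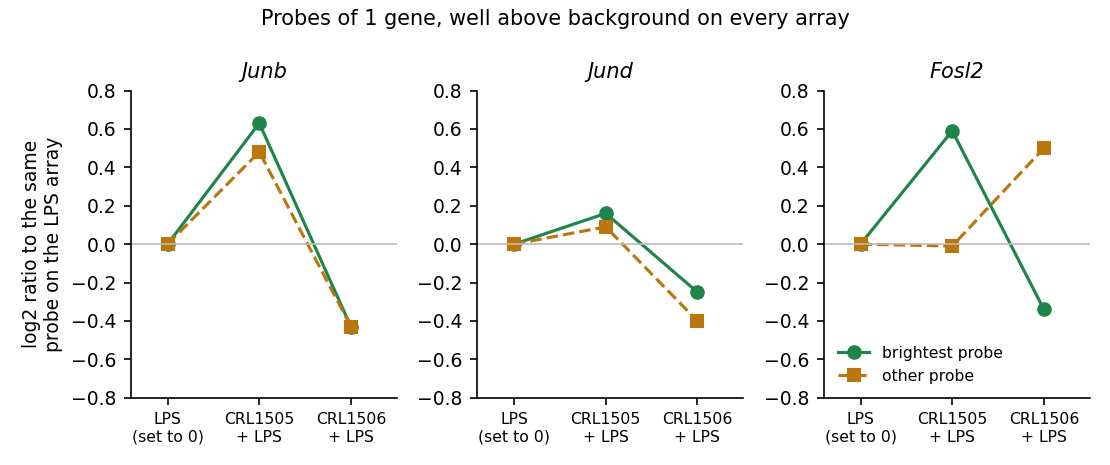
The log2 ratio to the LPS array (set to 0) of each probe well above background on every array, for *Junb*, *Jund* and *Fosl2*, with the brightest probe as circles and the other as squares, 1 array per condition. The probes of *Junb* and *Jund* trace the same course, whereas those of *Fosl2* part, at -0.34 and 0.50 with CRL1506.

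*Atf3*, a stress-induced ATF family gene whose protein can repress cytokine genes after TLR signaling, had a level of 52.6 with LPS, 66.7 with CRL1505 + LPS and 41.1 with CRL1506 + LPS. The CRL1505 + LPS array was highest and the CRL1506 + LPS array lowest. Against LPS, *Atf3* had a log2 ratio of 0.34 with CRL1505 and -0.36 with CRL1506, both under 2-fold. With CRL1505 the sign held in 6 of 7 scalings and was -0.17 with spike-in probes.

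*Batf2*, whose protein pairs with c-Jun and acts with IRF1 in activated macrophages, had the highest log2 ratio of the 9 members compared with CRL1505. Its level was 5.93 with LPS, 25.1 with CRL1505 + LPS and 8.36 with CRL1506 + LPS. The log2 ratio to LPS was 2.08 with CRL1505, a 4.23-fold rise that 2.76% of all genes compared matched or exceeded. With CRL1506 it was 0.49, or 1.41-fold, beyond the spread between probes but under 2-fold. Over 7 scalings *Batf2* ranged from 1.57 to 2.38 with CRL1505 and from 0.29 to 0.59 with CRL1506.

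*Batf*, best known as a lymphocyte factor, gave processed signals of 9.31 with LPS, 17.0 with CRL1505 + LPS and 25.8 with CRL1506 + LPS. None was well above background, so that no ratio is given.

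**Figure D3:**
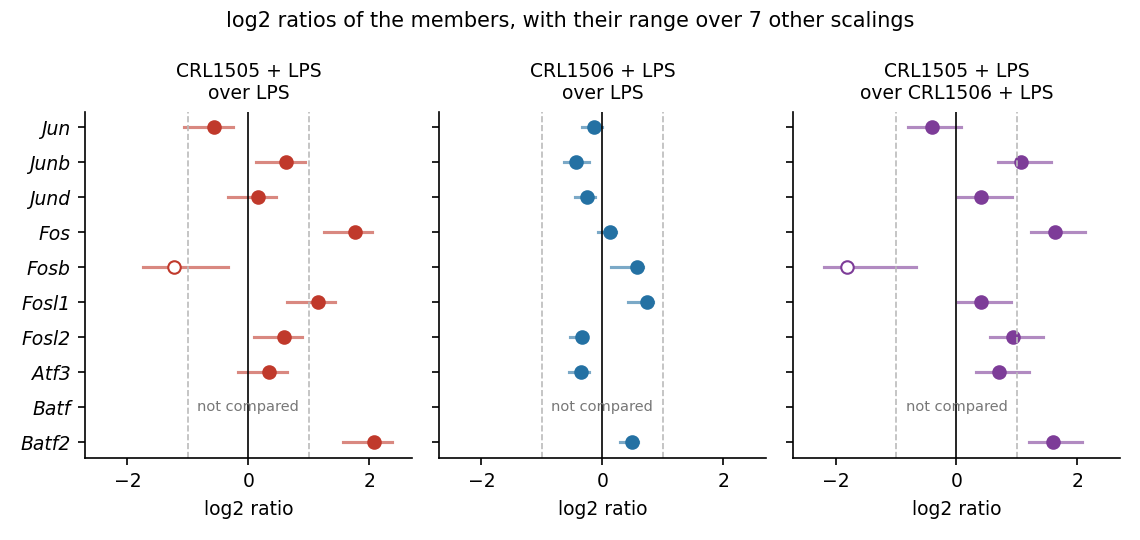
Log2 ratio of each member (points, 1 array per condition) in the comparisons of CRL1505 + LPS with LPS, CRL1506 + LPS with LPS and CRL1505 + LPS with CRL1506 + LPS, where bars span 7 other scalings and normalizations, dashed lines mark 2-fold and open points are bounds. *Fos* and *Batf2* stay beyond 2-fold in both comparisons with the CRL1505 + LPS array, with lowest values of 1.25 and 1.57 against LPS.

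The question of how the strains differed was addressed by setting CRL1505 + LPS against CRL1506 + LPS directly. *Fos*, *Batf2* and *Junb* were at least 2-fold higher with CRL1505, 3 of 9 members against 9.01% of the 15785 genes compared. *Fosb* was at least 2-fold lower, 1 of 9 against 7.46%. The log2 ratio was 1.63 for *Fos*, or 3.09-fold, and 1.59 for *Batf2*, or 3.00-fold, and both stayed past 2-fold in all 7 scalings. *Junb* had a log2 ratio of 1.06, or 2.08-fold, and passed 2-fold in only 2 of 7 scalings, with 0.91 on its second probe. *Fosb* was lower with CRL1505 by at least 3.51-fold, a bound that passed 2-fold in 5 of 7 scalings. Under the threshold were *Fosl2* at 0.93, with -0.50 on its other probe, *Atf3* at 0.70, *Jund* at 0.41, *Fosl1* at 0.40 and *Jun* at -0.41. The sign for *Jun* turned to 0.08 when arrays were shifted by the median. The median of the 9 members was 0.70, against 0.03 over all genes.

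**Figure D4:**
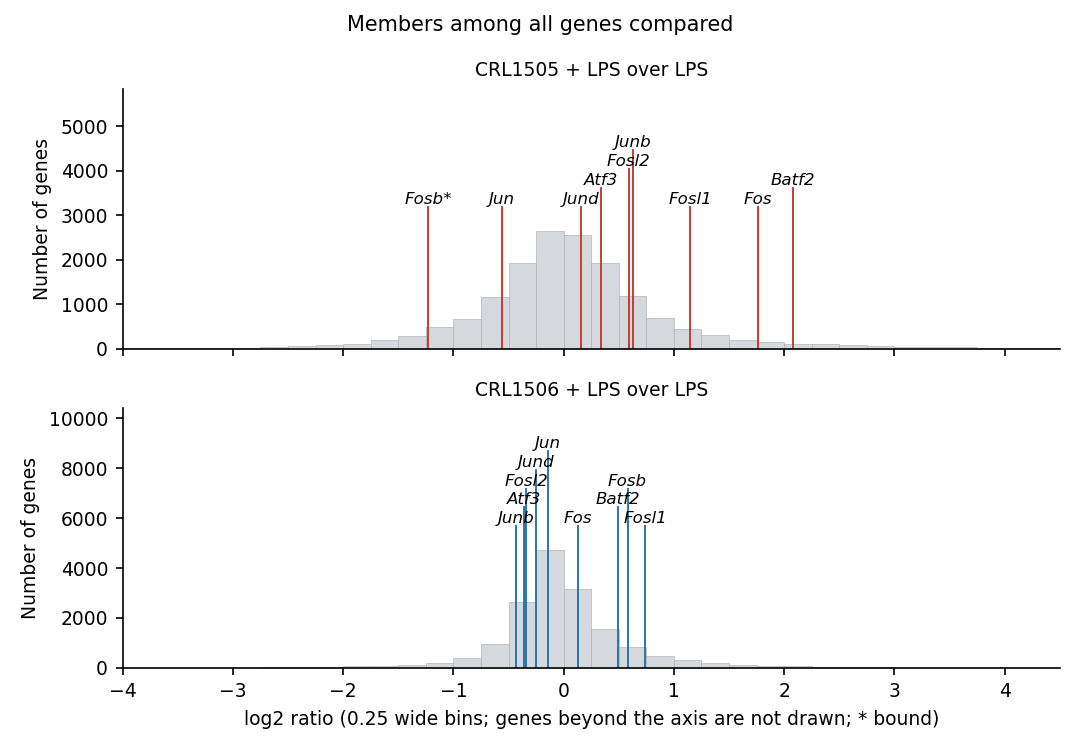
Number of genes (grey bars) by log2 ratio of CRL1505 + LPS over LPS (top) and CRL1506 + LPS over LPS (bottom), with a line at the ratio of each member and an asterisk for a bound, 1 array per condition. With CRL1505 the members spread from -1.23 to 2.08, and with CRL1506 they lie between -0.43 and 0.74.

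The surroundings of these factors were described by lists of related genes. Over all genes compared with LPS, 9.92% were at least 2-fold higher and 8.41% lower with CRL1505. With CRL1506 these shares were 5.67% and 3.52%. Among 41 other bZIP genes, 38 were compared with LPS for each strain. With CRL1505, 5 of 38 were at least 2-fold higher, a share near the 9.92% of all genes, and the count ran from 1 to 8 over the scalings. They were *Maf*, which encodes a macrophage factor linked to IL-10 (log2 ratio 1.93), *Creb3l4* (1.49), *Ddit3*, the stress factor CHOP (1.44), *Xbp1*, of the unfolded protein response (1.32), and *Mafk* (1.01). The myeloid factor gene *Cebpa* (-2.31) and the clock output gene *Dbp* (-1.69) were at least 2-fold lower, with 2 to 4 genes lower over the scalings. With CRL1506 *Cebpa* alone passed 2-fold, at -1.11, followed by *Cebpd* (-0.92) and *Ddit3* (0.88), which did not. *Creb3l4*, *Xbp1* and *Mafk* were named after their values were seen. The median of the list was 0.27 with CRL1505, with a sign that depended on the scaling (-0.24 to 0.56), and -0.06 with CRL1506.

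Of the 17 kinases and serum response factors that act upstream of AP-1, only *Map2k1*, encoding the ERK kinase MEK1, passed 2-fold with CRL1505, at a log2 ratio of 1.33, and 0 to 3 did over the scalings. *Map2k4*, which encodes a JNK kinase, followed at 1.99-fold and *Elk4*, a partner of serum response factor, at a log2 ratio of 0.93. None of the 17 passed 2-fold with CRL1506, where the farthest from 0 were *Map3k8* (-0.63), the gene of the kinase TPL2, *Srf* (-0.55) and *Mapk3* (-0.47). The median was 0.05 and -0.25, and with CRL1505 it ranged from -0.46 to 0.34 over the scalings.

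Of the 8 partners that share composite DNA elements with AP-1 or BATF, 7 were compared, and for *Irf4* no array was well above background. *Irf8*, an IRF that BATF proteins bind, had log2 ratios of -0.29 with CRL1505 and -0.56 with CRL1506. *Nfatc2* was at least 2-fold lower with CRL1505 (-1.56), beside 7 uneven spots among the 20 nearest on the LPS array. *Ets1* was at least 2-fold higher with CRL1506 (1.78), on a spot that was itself uneven on that array. The part of the uneven spots was not tested. *Nfatc1* at -0.76 with CRL1505 and *Spi1*, which encodes PU.1, at -0.76 with CRL1506 were lower by less than 2-fold. Thus 1 of 7 was lower with CRL1505, against 8.41% of all genes, and 1 to 3 were over the scalings. With CRL1506, 1 of 7 was higher, against 5.67%, and 0 to 1 over the scalings. The median was -0.38 with CRL1505 (-0.89 to -0.09 over the scalings) and -0.45 with CRL1506 (-0.65 to -0.33).

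Among 21 textbook target genes of AP-1, 18 were compared with CRL1505. Against 9.92% of all genes, 5 of the 18 were at least 2-fold higher. They included the cytokine gene *Il6* (log2 ratio 4.25), the collagenase gene *Mmp13* (2.18), *Ptgs2*, encoding COX-2 (1.63), and *Il1b* (1.07). *Plau*, encoding urokinase (-2.55), and the matrix metalloproteinase gene *Mmp10* (-1.02) were at least 2-fold lower. Over the scalings 3 to 6 targets were higher and 1 to 5 lower with CRL1505. With CRL1506, 19 were compared, and *Il6* (2.35) and *Il2* (1.36, a bound on an uneven spot) were higher, against 5.67% of all genes. The 3 genes at least 2-fold lower with CRL1506, against 3.52% of all genes, included *Mmp10* (-1.45) and *Il1b* (-1.04). Of the 20 spots nearest to the *Il1b* probe, 4 were uneven on the CRL1506 + LPS array, and their part was not tested. Over the scalings 1 to 2 targets were higher and 2 to 6 lower with CRL1506. *Ptgs2* and *Il1b* were named after their values were seen. The targets thus moved in both directions, with a median of 0.41 with CRL1505 (-0.10 to 0.70 over the scalings) and -0.13 with CRL1506.

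Immediate-early genes outside AP-1 are transcribed, like *Fos*, directly upon a stimulus. With CRL1505, 8 of 12 were at least 2-fold higher and 0 lower, against 9.92% and 8.41% of all genes. The median log2 ratio was 1.10 (0.59 to 1.40 over the scalings). The zinc finger gene *Egr1* (2.46), the nuclear receptor gene *Nr4a1* (2.26) and the MAP kinase phosphatase gene *Dusp1* (2.06) were highest. With CRL1506, 11 were compared and only *Egr1* passed 2-fold, at 1.45, with a median of 0.01, while *Dusp1* was at 0.72, *Nr4a1* at 0.07 and *Klf2* at -0.82. Of the 20 spots nearest to the *Klf2* probe, 8 were uneven on the LPS array. *Egr3*, 1 of the 8 genes counted higher with CRL1505 and named after its values were seen, was a bound of 1.09 on a spot that was itself uneven. The number of genes in this list past 2-fold with CRL1505 was 3 to 8 over the scalings.

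Interferon-induced genes were counted because *Batf2* is itself one. With CRL1505, 8 of 10 were at least 2-fold higher and 0 lower, against 9.92% and 8.41% of all genes. The median log2 ratio was 1.90, with the highest values for *Ifit3* (2.71), *Rsad2* (2.36) and *Gbp2* (2.15). With CRL1506, *Ifit3* (1.26), *Rsad2* (1.11) and *Mx1* (1.08) were at least 2-fold higher, 3 of 10 against 5.67% of all genes. The median was 0.59. *Mx1* was at 1.90 with CRL1505, and *Gbp2* at -0.31 with CRL1506. The medians stayed above 0 in all 7 scalings for both strains.

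**Figure D5:**
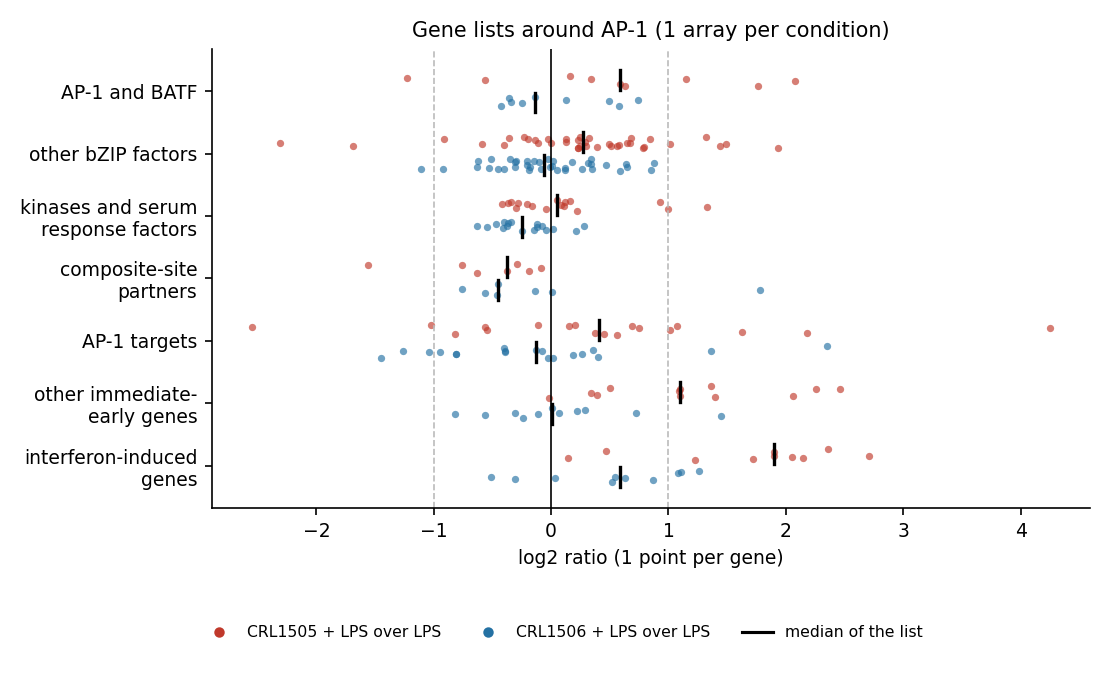
Log2 ratio to LPS of each gene (points) in the AP-1 and BATF group and 6 lists of related genes, with CRL1505 in red, CRL1506 in blue, black bars for medians and dashed lines at 2-fold, 1 array per condition. The medians with CRL1505 are highest for the interferon-induced genes, at 1.90, and the other immediate-early genes, at 1.10.

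For *Fos*, *Fosl1* and *Batf2*, the members past 2-fold against LPS and well above background on all arrays, the genes with the closest pair of ratios were sought among 13125 such genes, by the distance between the pairs of log2 ratios to LPS. For *Batf2* they were *Gbp3* (distance 0.025), which encodes an interferon-induced GTPase, *Samhd1* (0.074) and *Rin2* (0.079), and 35 genes lay within the spread between probes. For *Fos* they were *Slc36a1* (0.040), *Olfr1131* (0.042) and *9430015G10Rik* (0.054), with 37 genes within the spread. For *Fosl1* they were *Arrdc4* (0.052), *2310047N11Rik* (0.052) and *G730013B05Rik* (0.056), with 65 genes within the spread. With a pair of values per gene, such nearness is a description of these arrays.

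Some members are neighbours on the chromosome. The probes of *Fos* and *Batf* are 231.8 kb apart on chromosome 12 (mm9), with that of *Jdp2*, a bZIP repressor gene, 162.5 kb from *Fos*. While *Fos* was higher with CRL1505 and *Batf* could not be compared, *Jdp2* had log2 ratios of -0.03 with CRL1505 and -0.45 with CRL1506. The probes of *Fosl1* and *Batf2*, both past 2-fold with CRL1505, lie 716.9 kb apart on chromosome 19. Those of *Atf3* and *Batf3*, a relative of *Batf*, lie 62.0 kb apart on chromosome 1, and *Batf3* had log2 ratios of 0.13 and 0.35. *Jdp2* and *Batf3* were singled out for their position.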

How the data were processed

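RNA was hybridised in 1 colour, Cy3, to SurePrint G3 Mouse GE arrays with probes of 60 bases, 1 array per group, grouped by the sample titles and descriptions. The authors deposited the processed signal of each spot, an intensity with background subtracted by Feature Extraction (version 12.0.3.1 per the file headers), and a table of log2 values normalized between arrays, used here only as an alternative. The paper names GeneSpring for the normalization.

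From each log2 intensity, that of the 75th percentile over the array's 59305 gene spots was subtracted. Between 241 and 467 outlier spots per array were left out, no gene spot was saturated, and repeated spots were averaged per probe. Each gene was read from its brightest probe. Genes well above background on neither array were not compared. With only 1 side well above background, the ratio was a bound, taken against the lowest signal well above background or the probe's own if higher, and bounds with no direction were left out. A gene counted as higher or lower at 2-fold, the threshold in the methods. Without replicates, the methods' t-test could not be run. The number of arrays limits the precision. The median SD of repeated spots was 0.045, 0.040 and 0.042 on the log2 scale, and covers a single hybridisation.

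Members and lists were chosen with earlier results of these data known. All 10 members are named, with, from each list, the 3 genes farthest from 0 for each strain (1 gene of the target list is counted but not reported here by name), and the 3 genes nearest in pattern to each member past 2-fold against LPS and well above background on all arrays. Alternatives were other scalings, background correction, filters, probe rules and thresholds of 1.5-fold and 4-fold. Spots were called uneven where mean and median pixel signal differed by over 0.2 on the log2 scale, with the mean higher. Python 3.11.15, pandas 2.3.3, NumPy 2.4.6, R 4.3.3 and limma 3.58.1 were used, and the procedure was tested on simulated data.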

Additional observations from a re-analysis of the deposited data

Results flagged for a closer look

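The log2 ratio to LPS had opposite signs with CRL1505 and CRL1506 for some members, each on 1 array per strain, and these differences were not tested. *Junb* was at 0.63 with CRL1505 and -0.43 with CRL1506, a difference of 1.06. On its brightest probe it kept opposite signs in all 7 scalings. *Fosb* was at -1.23, as a bound, and 0.58, a difference of -1.81, also in all 7 scalings, on 1 dim probe. *Fosl2* was at 0.59 and -0.34, a difference of 0.93 on its brightest probe, which its other probe contradicted. *Atf3* was at 0.34 and -0.36, a difference of 0.70, with opposite signs in 6 of 7 scalings. *Jund* was at 0.16 and -0.25, a difference of 0.41, with opposite signs in 4 of 7 scalings.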

How the results depend on the processing

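With 1 array per group, no array could be left out. Of the 14 alternative settings, the 12 other than the thresholds recomputed the log2 ratios of members. Of these ratios 269 stayed within the spread between probes, 52 moved beyond it, and no called ratio changed sign. Keeping outlier spots or leaving out uneven ones could not move a member, since no member spot was either. The filters on dim probes returned the main value for every member ratio that they kept. All of these are counted in the 269. Scaling moved all genes: the median log2 ratio of bright genes with CRL1505 over LPS was 0.06, 0.35 with a shift by the median and -0.45 with spike-in probes. Of the counts of members, 66 were unchanged or within 1.5 times and 18 differed more. The 1 member lower with CRL1505 than with LPS, *Fosb*, became 0 with the shift by the median, cyclic loess, normexp background correction and the deposited log2 table. It also became 0 with a filter for probes bright on all arrays, and at 4-fold. Under these settings 1.54% to 7.45% of all genes compared were lower, against 8.41% before. There were 2 lower members with spike-in probes, where 19.8% of all genes compared were lower. Between the strains the 1 lower member became 0 with normexp, the deposited table, the filter for probes bright on all arrays, and 4-fold. There 0.995% to 5.79% of all genes compared were lower, against 7.46% before. The 3 higher members between the strains became 5 with the shift by the median or at 1.5-fold and 0 at 4-fold. The share of all genes compared moved as well, from 9.01% to 23.6%, 19.0% and 2.46%, respectively. The 3 higher with CRL1505 than with LPS became 5 at 1.5-fold and 1 at 4-fold, where 19.1% and 2.99% of all genes compared were higher. The 0 higher with CRL1506 became 1 at 1.5-fold and 1, *Batf*, with no filter on dim probes. There 11.7% and 7.72% of all genes compared were higher. The cause of these moves was not tested, except that thresholds and filters act by construction.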
